A study of Homo sapiens with 18 samples.

Results

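A549 cells given a 1 h pulse of TGFβ were compared 24 h and 8 h after its start, in the arm that carried the control siRNA. The 24 h group held the 3 arrays labelled siControl (+TGFbeta, 24 hours), and the 8 h group held the 3 labelled siControl (+TGFbeta, 8 hours). These were 6 of the 18 arrays of the series, chosen by label alone. A549 is an established human lung adenocarcinoma line, so every array is bulk RNA of 1 cell line, and fewer cells of a type could not be told apart from less RNA per cell. All 6 samples carried siControl and had gone through serum starvation, a pulse of 1 h with TGFβ at 250 pM, washing, and a return to serum-deprived medium until extraction. The other arrays were siControl without TGFβ and the same 3 conditions after siPKCiz, the siRNA arm in which the atypical PKC isoforms were silenced, with 3 arrays labelled as biological replicates in each of the 6 groups. Since the 24 h cells had also spent longer in serum-deprived medium and no untreated array carried a time, time after the pulse and time in that medium could not be told apart.

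TGFβ binds a receptor pair with serine/threonine kinase activity, which phosphorylates SMAD2 and SMAD3; these join SMAD4 and enter the nucleus. An early wave of targets includes feedback inhibitors and transcription factors, and a later wave includes matrix proteins, proteases and cytoskeletal genes. In epithelial lines such as A549, sustained signalling is known for the epithelial to mesenchymal transition, in which junction genes such as CDH1 are lost and mesenchymal genes are gained.

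Values are the deposited intensities, and 18377 genes were tested. Each change is the log2 intensity at 24 h minus that at 8 h, with its standard error from limma after ±, and a gene was called at an adjusted p under 0.05. Per-array values follow in the order of replicates 1, 2 and 3. Array medians lay between 156.1 and 160.7. The replicate 1 arrays stood apart: across genes, log2 values of replicate 1 correlated with those of replicates 2 and 3 at 0.9925 and 0.9917 at 24 h, against 0.9968 between replicates 2 and 3. At 8 h the same correlations were 0.9933 and 0.9936, against 0.9962. Results are therefore also given without replicate 1 of every group, which is 1 of 3 fits that leave out a replicate number. Keratins KRT8 and KRT18 and the aldehyde dehydrogenase ALDH1A1 were bright in all 6 arrays, and the 9 A549 epithelial markers summed to between 39764 and 46908 at 24 h and between 46176 and 49639 at 8 h. The alveolar type 2 genes SFTPB, SFTPC, NAPSA and NKX2-1 lay below the array median in all 6 arrays (SFTPC had 95.3, 87.9 and 103 at 24 h and 87.4, 107 and 99.8 at 8 h), as did PTPRC of leukocytes and PECAM1 and CDH5 of endothelium. By siControl 8 h means, 7 of 11 type 2, 7 of 8 leukocyte and 8 of 8 endothelial markers lay below the median, and the rest did not. The type 2 markers summed to between 3760 and 3903 at 24 h and between 3539 and 3702 at 8 h. The leukocyte markers summed to between 1318 and 1584 at 24 h and between 1488 and 1689 at 8 h. The 9 fibroblast markers summed to between 2015 and 2437 at 24 h and between 1849 and 2078 at 8 h, with DCN, FAP and PDGFRB below the array median in each of the 6 arrays. By siControl 8 h means, 7 of these 9 lay below the median.

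At 24 h, 241 genes were higher than at 8 h (1.31% of those tested) and 202 were lower (1.1%), 443 in all (2.41%). HHLA2, IGFBP5, LCE3E and SLN had the largest rises, whereas ANGPTL4, the mucous-cell gene AGR2, the detoxifying enzymes GPX2 and ALDH3A1 and the fatty acid transporter SLC27A2 had the largest falls. Most changes were modest: 21 genes were at least 2-fold higher and 10 at least 2-fold lower, and the median called change was 0.49 among the higher and -0.47 among the lower. Among the called genes, 441 of 443 had 24 h and 8 h arrays that did not overlap, and over all genes tested 2865 (15.6%) did not overlap. Leaving out 1 array left between 95 (without 8 h replicate 2) and 179 higher calls, and between 92 (without 8 h replicate 1) and 140 lower calls. Without all replicate 1 arrays, 431 genes were higher and 239 lower; 182 of the 241 higher and 126 of the 202 lower genes were called again. Without all replicate 2 arrays 6 genes were higher and 5 lower, and without all replicate 3 arrays 9 and 4, each of them among the 443. All 443 kept their direction in each of these 3 fits, which for the 441 without overlap could not have come out otherwise. Of the 104 called genes named by rule, 18 lost the call without replicate 1, 95 without replicate 2 and 95 without replicate 3. The 7 called in all 3 fits were HHLA2, LUM, AGMO, FLRT2, PDGFC, ALDH3A1 and NALCN. The median residual SD was 0.0974 without replicate 1, 0.13 without replicate 2 and 0.127 without replicate 3. At an unadjusted p under 0.05 in limma, 2501 of the 18377 genes differed with all arrays. Without replicate 2 the count was 815 higher and 934 lower, and without replicate 3 it was 989 and 1057. Unadjusted counts per list are to be read beside these. Called counts per list are to be read beside the 1.31% higher and 1.1% lower of all genes tested. The lists were drawn up with earlier results of these data known, and a gene can stand on more than 1.

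**Figure D1:**
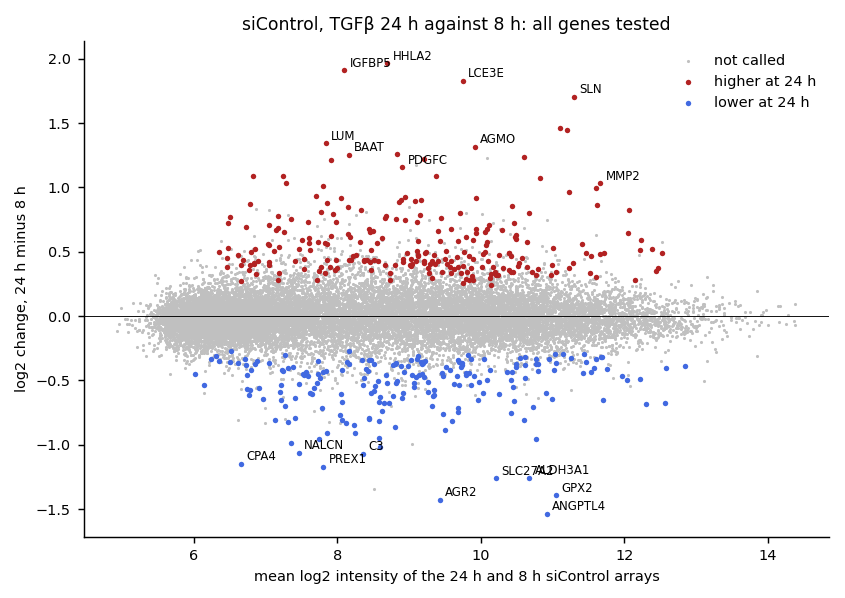
Log2 change between 24 h and 8 h (vertical axis) against mean log2 intensity (horizontal axis) for all 18377 genes in siControl. Red points are the 241 genes higher at 24 h, blue points the 202 lower ones, and the called genes span dim and bright probe sets.

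HHLA2 had the largest rise of the comparison. This B7-family gene, whose protein binds receptors on T and natural killer cells, had intensities of 670.0, 987 and 833 at 24 h, against 236, 178 and 220.1 at 8 h. The lowest 24 h array stood well above the highest 8 h array, and the change was 1.97 ± 0.12 (3.91-fold, adjusted p = 5.89e-08; 2.20 without replicate 1). Untreated siControl cells had 160.4, 153 and 159.8, close to the array median. The other 9 members of the B7 list were not called: CD274 (PD-L1) changed by 0.46 (adjusted p = 0.390), PDCD1LG2 (PD-L2) by 0.36 (0.416), CD276 by 0.22 (0.373) and VSIR by -0.44 (0.0893). CD80 and CD86 lay below the array median in all 6 arrays. CD274 had 620.2, 349 and 374 at 24 h, against 329, 284 and 334 at 8 h, and replicate 1 at 24 h stood apart from its group.

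LCE3D and LCE3E, neighbouring late cornified envelope genes whose proteins are known from the outermost layers of epidermis, rose together. They are members of the same gene family, and probe sets of similar genes can share signal, so the 2 values cannot be taken as independent. Shared probe signal was not tested. To show how alike their control regions are, the windows from 250 bases before to 50 after each RefSeq start (GRCh38.p14, minus strand, chr1:152580467-152580766 for LCE3D and chr1:152566731-152567030 for LCE3E) are printed 5′ to 3′. Capitals mark the longest run the windows share, 36 bases, which starts at base 161 of the LCE3D window and at base 160 of the LCE3E window.
LCE3D: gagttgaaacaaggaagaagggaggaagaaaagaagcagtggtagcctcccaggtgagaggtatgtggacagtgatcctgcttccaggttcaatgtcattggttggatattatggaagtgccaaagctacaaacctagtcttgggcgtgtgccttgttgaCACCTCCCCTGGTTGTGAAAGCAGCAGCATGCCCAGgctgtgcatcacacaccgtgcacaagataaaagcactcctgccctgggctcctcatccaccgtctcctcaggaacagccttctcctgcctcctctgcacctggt
LCE3E: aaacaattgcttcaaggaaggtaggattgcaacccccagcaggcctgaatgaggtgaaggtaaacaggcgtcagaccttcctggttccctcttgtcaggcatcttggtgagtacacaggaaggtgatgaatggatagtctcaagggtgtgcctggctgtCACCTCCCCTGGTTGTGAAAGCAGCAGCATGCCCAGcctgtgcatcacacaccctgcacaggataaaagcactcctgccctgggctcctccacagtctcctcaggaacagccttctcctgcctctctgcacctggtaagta

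LCE3D measured 158, 252 and 231 in untreated cells, 1359, 1365 and 1576 at 8 h and 2875, 4833 and 4284 at 24 h. LCE3E measured 166, 161 and 161 untreated, 377, 503 and 498 at 8 h and 907, 2332 and 2005 at 24 h. Both were dimmest without TGFβ, with separate groups at each step, and at 24 h replicate 1 was the lowest array of both genes. The changes between 24 h and 8 h were 1.45 ± 0.27 for LCE3D (2.73-fold, adjusted p = 0.00663) and 1.83 ± 0.31 for LCE3E (3.55-fold, 0.00364), and without replicate 1 they were 1.63 and 2.11. The family members LCE3A and LCE3C did not pass the test, at 0.20 (adjusted p = 0.427) and 0.12 (0.684), with LCE3C below the array median in each of the 6 arrays. CST1, cystatin SN, a secreted inhibitor of cysteine proteases placed on the same cornified envelope list, had 2424, 4473 and 4542 at 24 h, against 1118, 1355 and 1563 at 8 h. Its change was 1.46 ± 0.32 (0.0208). CST1 also has near-identical relatives, CST2 and CST4, and its value may hold their signal. Of 28 cornified envelope genes measured these 3 were higher (10.7%, beside 1.31% of all genes tested) and 0 lower. The list median was 0.02, beside -0.01 over all genes tested. CST1 was not called in 4 of the 6 fits that left out 1 of the 6 arrays (changes of 1.30 to 1.76, adjusted p up to 0.0861), while HHLA2, LCE3D and LCE3E stayed called in each. Unlike HHLA2, LCE3D and LCE3E were not called without all replicate 2 arrays (limma adjusted p = 0.244 and 0.217) or all replicate 3 arrays (0.184 and 0.16).

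SLN and IGFBP5 completed the group of genes that rose more than 3-fold. SLN encodes sarcolipin, a small membrane peptide that slows the calcium pump of the sarcoplasmic reticulum in muscle. It measured 199.5, 459 and 498 untreated, 1358, 1379 and 1456 at 8 h and 4394, 4877 and 4411 at 24 h, the brightest gene of this group. The 24 h arrays were tight and lay far above the 8 h arrays, with a change of 1.71 ± 0.27 (3.26-fold, adjusted p = 0.00214, and 1.71 without replicate 1). SLN was not called without all replicate 2 arrays (limma adjusted p = 0.137) or all replicate 3 arrays (0.0962). IGFBP5, a secreted binding protein of insulin-like growth factors, had 560.0, 488 and 550.2 at 24 h, against 108, 155 and 168 at 8 h. Its untreated arrays spread widely, at 106, 186 and 256, and overlapped those at 8 h. The change was 1.91 ± 0.40 (3.76-fold, 0.0163; 1.68, 1.81e-05 without replicate 1), and 3 of the 6 single-array omissions ended the call (changes of 1.72 to 2.04, adjusted p up to 0.0716). Within the IGF pathway list 2 of 15 genes were higher (13.3%, beside 1.31% of all genes tested) and 0 lower. The second was PAPPA, a protease that cuts IGF-binding proteins, with 3212, 2418 and 1944 at 24 h, against 1676, 1584 and 1907 at 8 h and 2456, 2783 and 2665 untreated (0.53 ± 0.13, adjusted p = 0.0434). The replicate 1 array at 24 h carried much of the PAPPA value, since the change was 0.34 without that array and 0.32 (adjusted p = 0.172) without replicate 1 of every group. The paralogs IGFBP1, IGFBP2, IGFBP3, IGFBP4, IGFBP7 and IGFBPL1 were not called, and IGFBP3 had the largest value among them, 0.28 (adjusted p = 0.358).

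**Figure D2:**
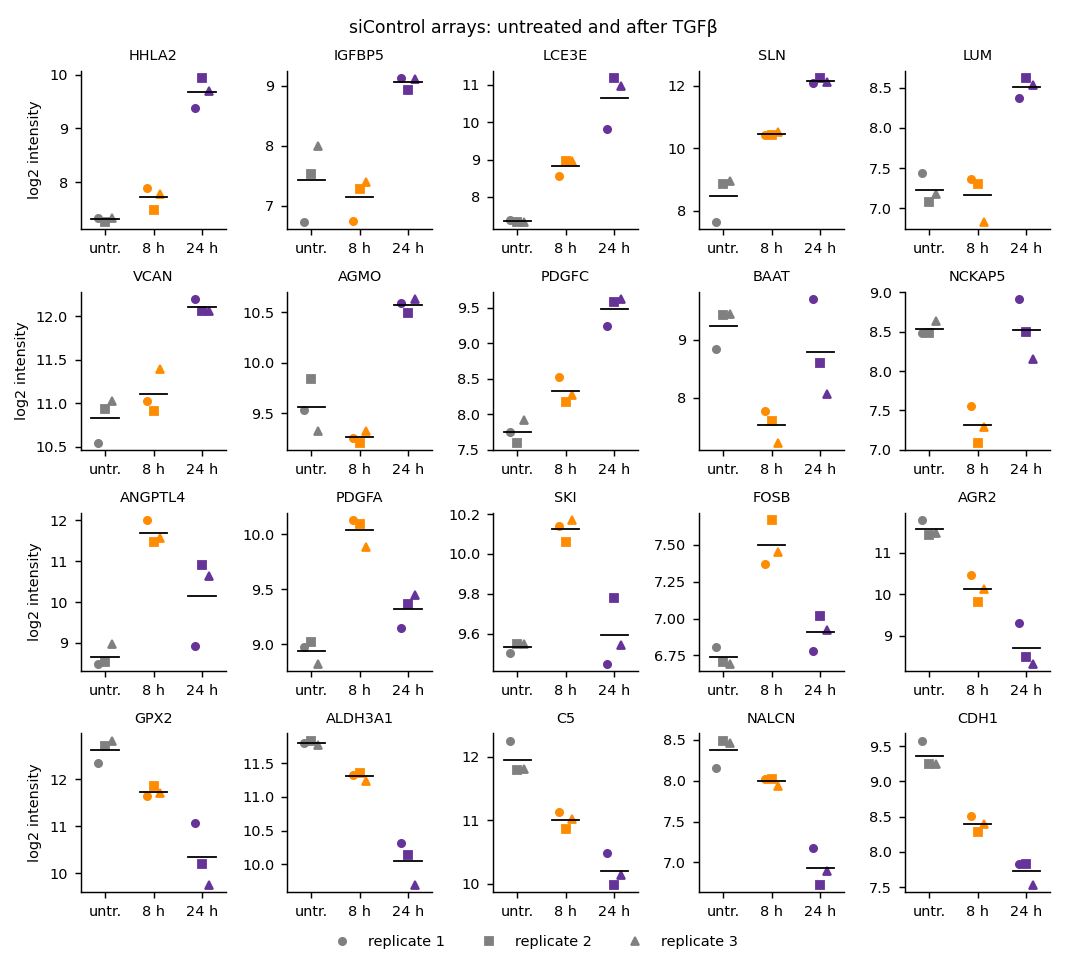
Log2 intensity (vertical axes, one scale per panel) of 20 genes in the siControl arrays without TGFβ, at 8 h and at 24 h. Each symbol is 1 array (circle, replicate 1; square, replicate 2; triangle, replicate 3) and each line a group mean; HHLA2, LCE3E and SLN stand highest at 24 h, BAAT and NCKAP5 are lowest at 8 h, ANGPTL4, PDGFA, SKI and FOSB are highest at 8 h, and AGR2, GPX2, ALDH3A1, C5, NALCN and CDH1 are lowest at 24 h.

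Of 25 collagen chains measured, COL4A2, COL15A1 and COL5A2 were higher at 24 h and 0 lower. The share higher was 12%, beside 1.31% of all genes tested, and the list median was 0.13. COL4A2, a chain of the basement membrane network, had 1893, 2392 and 2212 at 24 h, against 1219.9, 1251 and 1240.2 at 8 h and 524, 742 and 728 untreated. Its 3 groups of arrays were all separate, and the 24 h to 8 h change was 0.80 ± 0.17, adjusted p = 0.0149. The basement membrane collagen COL15A1 (0.65 ± 0.10, adjusted p = 0.00119) and the fibrillar chain COL5A2 (0.50 ± 0.08, adjusted p = 0.00155) changed less and stayed called without each single array. COL4A1, which shares its promoter region with COL4A2, missed the threshold at 0.72 (adjusted p = 0.0548), and the chains of type I and III collagen did not pass, at 0.02 for COL1A1 (0.977), -0.06 for COL1A2 (0.863) and 0.20 for COL3A1 (0.355). COL1A1 measured 322, 408 and 362 untreated, 922, 769 and 762 at 8 h and 608, 1027 and 912 at 24 h, and its 24 h and 8 h arrays overlapped. None of the 22 genes of collagen processing and crosslinking was called by limma, with 5 at an unadjusted p under 0.05, beside 2501 of all 18377 genes.

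Of 40 matrix glycoproteins and proteoglycans, 6 were higher and 0 lower (15.0%, beside 1.31% of all genes tested, median 0.12). LUM, lumican, a small proteoglycan that binds collagen fibrils, had 331, 394 and 371 at 24 h, against 165, 158 and 114 at 8 h. It was close to the array median at 8 h and without TGFβ, and all 24 h arrays exceeded every 8 h array (1.34 ± 0.14, adjusted p = 2.69e-05; 1.51 without replicate 1). LUM also stands on the fibroblast marker list, where it was the 1 called gene of 9. VCAN, versican, a large chondroitin sulfate proteoglycan, had 4701, 4258 and 4249 at 24 h, against 2079.9, 1930.0 and 2690.0 at 8 h. The 24 h values were close together and far above those at 8 h (1.99-fold, 0.99 ± 0.17, adjusted p = 0.00331). FBN1, the microfibril protein fibrillin-1 (0.64 ± 0.11, adjusted p = 0.00500), NID1, nidogen of the basement membrane (0.68 ± 0.14, adjusted p = 0.0124), and SPOCK1, a secreted proteoglycan (0.87 ± 0.22, adjusted p = 0.0434), were also higher, with HSPG2, perlecan, as the sixth. Fibronectin, FN1, changed by 0.48 and missed the threshold (adjusted p = 0.0637). Single-array omissions ended the calls of COL4A2 (3 of 6 omissions, 0.73 to 0.89), NID1 (3, 0.57 to 0.86) and SPOCK1 (5, 0.76 to 1.01), and left 3 to 7 higher genes on the glycoprotein list, 3 without replicate 2 at either time. Without replicate 1 that list had 13 higher and 2 lower genes and the collagen list 5 and 1. Limma called 1 glycoprotein gene and 0 collagen genes without replicate 2, as without replicate 3; at an unadjusted p under 0.05, 6 collagen genes were higher and 1 lower without replicate 2, and 7 and 1 without replicate 3.

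Of 20 metalloproteinase and TIMP genes 3 were higher, the proteases MMP2 and MMP1 and the inhibitor TIMP2, and 0 lower. The share higher was 15.0%, beside 1.31% of all genes tested. MMP2, a gelatinase that degrades basement membrane collagen, measured 424, 709 and 817 untreated, 2260.3, 1986 and 2617 at 8 h and 3731, 5315 and 5059.9 at 24 h. Every group was separate from the next, and the change between 24 h and 8 h was 1.03 ± 0.27, adjusted p = 0.0471. MMP1, interstitial collagenase, had 537, 784 and 818 at 24 h, against 238, 245 and 431 at 8 h (1.26 ± 0.30, adjusted p = 0.0343). The highest 8 h array of MMP1, replicate 3, lay below the lowest 24 h array, replicate 1. TIMP2, an inhibitor that also takes part in activating MMP2, had 6165, 7938 and 6997 at 24 h, against 4830.3, 4802 and 5284 at 8 h (0.49 ± 0.11, adjusted p = 0.0282). MMP10 (0.56, adjusted p = 0.0761), MMP9 (0.36, 0.201), MMP3 (0.10, 0.875) and MMP7 (-0.41, 0.0898) were not called. In siPKCiz MMP2 was the 1 higher gene of the list, while MMP7 (-0.57, 0.0296) and MMP24 (-0.70, 0.0484) were lower. Among 16 plasminogen and serpin genes 2 were higher, SERPINE2, an inhibitor of thrombin and urokinase (0.65 ± 0.13, adjusted p = 0.0131), and PLAU, urokinase (0.49 ± 0.13, adjusted p = 0.0494). The 2 lower ones were TFPI2, a Kunitz-type protease inhibitor of the matrix (-0.65 ± 0.12, adjusted p = 0.00605), and SERPINA3, antichymotrypsin (-0.77 ± 0.18, adjusted p = 0.0318). Each direction held 12.5% of the list, beside 1.31% higher and 1.1% lower of all genes tested. The calls of MMP1, MMP2, TIMP2, SERPINE2, PLAU and SERPINA3 were each lost in 4 or 5 of the 6 single-array omissions, with changes of 0.93 to 1.19 for MMP2 and 1.11 to 1.54 for MMP1; without replicate 1 all 6 were called, MMP2 at 1.19 and PLAU at 0.76. The metalloproteinase list had 0 to 3 higher genes in the single-array omissions, 0 by limma without replicate 2 or 3 at 24 h and without replicate 1 or 2 at 8 h (6 or 7 at an unadjusted p under 0.05), and 5 higher and 2 lower without all replicate 1 arrays. The plasminogen and serpin list had 0 to 2 higher genes in the omissions, 0 without replicate 2 or 3 at 24 h and without replicate 2 at 8 h (5, 5 and 2 at an unadjusted p under 0.05).

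Of the matrix receptors 1 gene was higher, and of the mesenchymal markers 6. ITGA11, a collagen-binding integrin chain of mesenchymal cells, had 3346, 3463 and 3213 at 24 h, against 1617, 1631 and 1896 at 8 h. Both groups were tight and far apart (0.97 ± 0.15, adjusted p = 0.00218), and of 16 integrins it was the 1 higher gene. ITGB5, a chain of a vitronectin receptor, was the 1 lower integrin, with 2901, 2918 and 2538 at 24 h, against 3602, 3284 and 3636 at 8 h (-0.33 ± 0.08, adjusted p = 0.0234). On the mesenchymal list 6 of 18 genes were higher and 0 lower (33.3%, beside 1.31% of all genes tested, median 0.36). They were MMP2, SPOCK1, SERPINE2, the bone morphogenetic protein antagonist GREM1, the ectonucleotidase NT5E and N-cadherin, CDH2. Each of the 6 also counts on another list, so the list counts are not separate results. GREM1 measured 1457, 1551 and 1657 untreated, 2493, 2066 and 2172 at 8 h and 3603, 3122 and 3203 at 24 h (0.56 ± 0.13, adjusted p = 0.0281). NT5E (CD73) had 5749, 6984 and 6599 at 24 h, against 4249.6, 4322 and 4853 at 8 h (0.52 ± 0.10, adjusted p = 0.00907). CDH2 had 4881, 4889.6 and 5260.2 at 24 h, against 4088, 4022 and 4269 at 8 h, a separate but small step of 0.28 ± 0.07, adjusted p = 0.0475. Vimentin, VIM, changed by 0.12 (0.708) and smooth muscle actin, ACTA2, by 0.27 (0.541), neither called, and 0 of 25 actin and contractile genes passed limma's test (6 at an unadjusted p under 0.05). CDH2 (changes of 0.24 to 0.30, adjusted p up to 0.163) lost its call in all 6 single-array omissions and without replicate 1 (0.29, 0.0861), as ITGB5 did without replicate 1 (-0.34, 0.0675); GREM1 lost it in 5 omissions (0.50 to 0.64) and NT5E in 1 (0.46 to 0.60). The count of 6 higher mesenchymal genes became 0 by limma without 24 h replicate 2 (8 at an unadjusted p under 0.05), 1 without 24 h replicate 3 or 8 h replicate 2, 2 and 3 without 8 h replicates 3 and 1, and 5 without 24 h replicate 1. It was 9 without all replicate 1 arrays, 0 without all of replicate 2 or of replicate 3 (6 and 8 at an unadjusted p under 0.05), and 3 with the replicate number as a block.

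On the epithelial side, E-cadherin was lower while most junction genes were not called. CDH1 measured 765, 607 and 605 untreated, 364, 312 and 337 at 8 h and 228, 228 and 185 at 24 h. The groups did not overlap at any step, and the change from 8 h was -0.67 ± 0.17, adjusted p = 0.0462. KRT19, a keratin of simple epithelia, had 376, 355 and 330.1 at 24 h, against 575, 582 and 478 at 8 h (-0.62 ± 0.12, adjusted p = 0.00683), the 1 called keratin of 14. DSP, desmoplakin, which anchors keratin filaments at desmosomes, went the other way, with 989, 1087 and 885 at 24 h, against 801, 680.4 and 773 at 8 h (0.39 ± 0.08, adjusted p = 0.0181). Its untreated arrays, at 919, 929.5 and 959, lay above every 8 h array and among those at 24 h. CDH1 and DSP were the 2 called genes of 33 on the junction list; EPCAM, at -0.70 (adjusted p = 0.239), was not called, although its 24 h arrays (400.2, 324 and 295) were all below its 8 h arrays (612, 503 and 533). Of 14 transcription factors of the transition, SOX9 was higher (0.41 ± 0.10, adjusted p = 0.0341), with 757, 800.1 and 618 at 24 h, 577, 506 and 548.8 at 8 h and 678, 787 and 796 untreated. SNAI1 missed the threshold at -0.62 (adjusted p = 0.0792), and ZEB1 (0.04, 0.915), ZEB2 (0.08, 0.730), SNAI2 (-0.03, 0.969) and TWIST1 (-0.02, 0.966) had small values. The CDH1 call was lost in all 6 single-array omissions (changes of -0.72 to -0.57, adjusted p up to 0.154) but held without replicate 1 (-0.66, 0.00227); SOX9 lost its call in 4 omissions (0.33 to 0.52) and without replicate 1 (0.42, 0.0627), and DSP in 3 omissions (0.32 to 0.47).

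Of 33 growth factor genes, PDGFC and NRG1 were higher (6.06%) and PDGFA lower (3.03%), beside 1.31% and 1.1% of all genes tested. The list median was -0.02. PDGFC, a ligand of the platelet-derived growth factor receptor alpha, measured 215, 194 and 243 untreated, 369, 289 and 309 at 8 h and 603, 768 and 789.6 at 24 h. Its groups were separate at each step, and the change from 8 h was 1.16 ± 0.12, adjusted p = 2.61e-05. PDGFA, another ligand of that receptor, ran in the opposite direction: 568, 662 and 697 at 24 h, against 1122, 1093 and 947 at 8 h (-0.72 ± 0.12, adjusted p = 0.00328). The receptor genes PDGFRA and PDGFRB themselves were dim, at most 131 in these 6 arrays, and not called (0.11 and -0.02). NRG1, neuregulin of the EGF family, had 5711, 5878 and 5446 at 24 h, against 3999, 3891 and 4019 at 8 h (0.52 ± 0.10, adjusted p = 0.0128), and its second probe set changed by 0.39 (adjusted p = 0.0252). SUCNR1, the receptor of succinate, had 192, 222 and 254 at 24 h, against 115, 85.9 and 114 at 8 h (1.09 ± 0.24, adjusted p = 0.0193). TACR1, the substance P receptor, had 178, 258 and 243 at 24 h, against 96.0, 117 and 115 at 8 h (1.03 ± 0.20, adjusted p = 0.00907). HHIP, which sequesters hedgehog ligands, had 1258, 813 and 894 at 24 h, against 435, 446 and 486 at 8 h (1.09 ± 0.23, adjusted p = 0.0178), with the replicate 1 array the brightest at 24 h. Single-array omissions ended the calls of SUCNR1 and HHIP in 3 of 6 fits (0.95 to 1.19 and 0.91 to 1.22), of NRG1 in 2 (0.49 to 0.55) and of TACR1 in 1 (0.93 to 1.20), while PDGFC and PDGFA stayed called in each.

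SYT13, SCG5, SLC6A13, FLRT2, CDH10, SRPX, RTKN2 and RBMS3 also rose, and are described one by one. SYT13, a synaptotagmin, a family of membrane trafficking proteins, had 1887, 3197 and 3058 at 24 h, against 1353, 1133 and 1281 at 8 h. Replicate 1 at 24 h was its lowest 24 h array, and the change was 1.08 ± 0.16 with all arrays (adjusted p = 0.00128) and 1.38 without replicate 1. SYT13 was not called without all replicate 2 arrays (limma adjusted p = 0.115) or all replicate 3 arrays (0.138). SCG5, the chaperone of a prohormone convertase, had 310.0, 333 and 308 at 24 h, against 148, 145 and 179 at 8 h (1.01 ± 0.16, adjusted p = 0.00169). SLC6A13, a transporter of GABA and taurine, was dim at 8 h (82.3, 69.6 and 81.3) and had 122, 215 and 171 at 24 h (1.09 ± 0.16, adjusted p = 0.000985). FLRT2, a leucine-rich adhesion protein that guides axons, had 1048, 822 and 849.5 at 24 h, against 369.5, 419.9 and 370.4 at 8 h (1.22 ± 0.12, adjusted p = 2.61e-05). CDH10, a type II cadherin, had 338, 253 and 280.3 at 24 h, against 144, 148 and 161 at 8 h (0.94 ± 0.13, adjusted p = 0.000850). SRPX (1616, 2814 and 2946 at 24 h and 1099.9, 879.6 and 1055 at 8 h, 1.24 ± 0.17, adjusted p = 0.000850), RTKN2, a rhotekin-family protein (0.93 ± 0.11, adjusted p = 0.000164), and RBMS3, an RNA-binding protein (0.92 ± 0.17, adjusted p = 0.00600), had 24 h arrays that did not overlap those at 8 h either. All 8 stayed called without each single array.

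**Figure D3:**
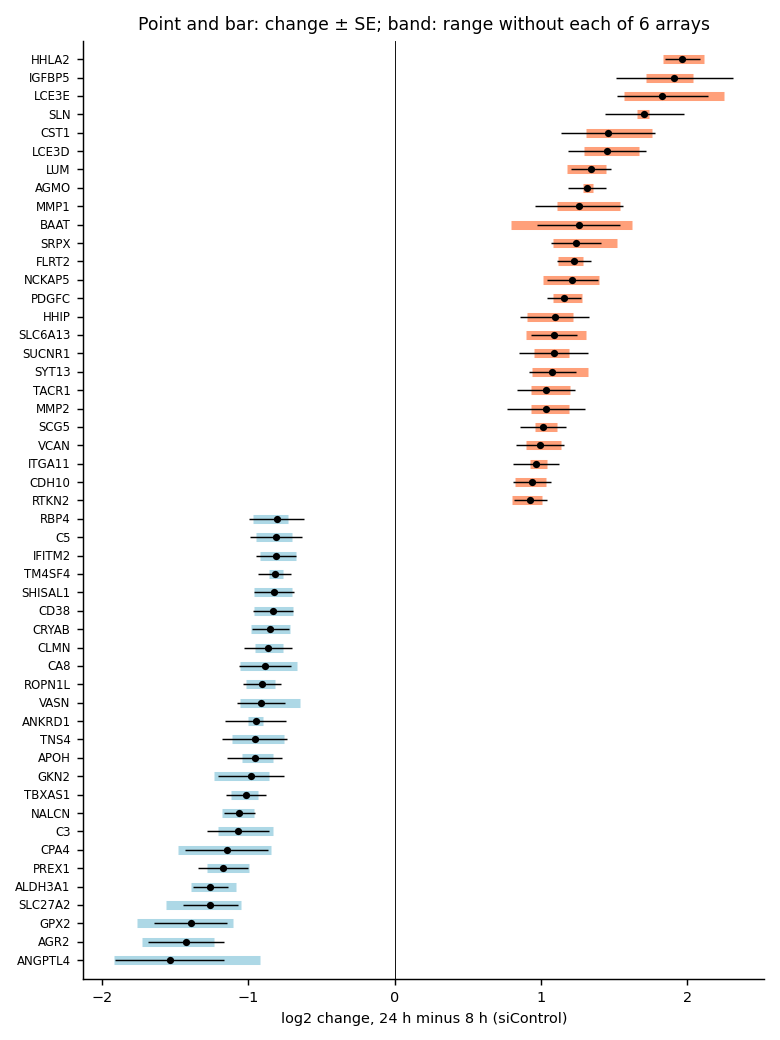
Log2 change between 24 h and 8 h for the 25 highest and 25 lowest called genes whose arrays did not overlap. Points and bars are the change ± its standard error, and bands the range of the change when each of the 6 arrays was left out; BAAT and ANGPTL4 have wide bands, AGMO, SLN and TM4SF4 narrow ones.

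BAAT, NCKAP5, RIGI, INSIG1 and ACACA were lower at 8 h than without TGFβ, and their 24 h levels did not pass limma's test against untreated cells; the comparisons of 8 h share the 8 h arrays. BAAT, the liver enzyme that conjugates bile acids to glycine or taurine, measured 459.6, 690.4 and 693 untreated, 218, 193 and 149 at 8 h and 834, 386 and 266 at 24 h. Its 24 h arrays ran over a wide range but all exceeded the 8 h arrays (1.26 ± 0.29, adjusted p = 0.0254). The replicate 1 array at 24 h held the highest value, and without it the change was 0.80; 4 of 6 single-array omissions ended the call (adjusted p up to 0.101), and without replicate 1 of every group it was 0.92 (0.00169). NCKAP5 measured 358, 357 and 397 untreated, 188, 136 and 156 at 8 h and 484, 361 and 284 at 24 h (1.21 ± 0.17, adjusted p = 0.000934), and stayed called without each array. AGMO, which cleaves ether lipids, was not called between 8 h and untreated cells, and measured 737, 916 and 641 untreated, 608, 589.8 and 639 at 8 h and 1545, 1437 and 1589 at 24 h. It ended well above the untreated arrays, with one of the smallest errors among the top genes (1.31 ± 0.13, adjusted p = 2.61e-05). RIGI, the cytosolic sensor of viral RNA, had 891, 694 and 590.1 at 24 h, against 531, 363 and 415 at 8 h, with 810.0, 758 and 985 untreated (0.73 ± 0.16, adjusted p = 0.0187). On the interferon list RIGI and SAMD9L (0.61 ± 0.16, adjusted p = 0.0484) were higher, SAMD9L with 277, 296 and 275 untreated, 393, 320.2 and 262 at 8 h and 556, 471 and 444 at 24 h, and IFITM2, a membrane protein that restricts virus entry, was lower (-0.81 ± 0.14, adjusted p = 0.00353), 3 of 37 genes. INSIG1, the sterol-sensing retention protein (0.37 ± 0.09, adjusted p = 0.0363), and ACACA, the enzyme of the first committed step of fatty acid synthesis (0.29 ± 0.07, adjusted p = 0.0375), had the smallest changes of these genes. RIGI, SAMD9L, INSIG1 and ACACA lost their calls in 4 or 5 single-array omissions (RIGI 0.57 to 0.88, SAMD9L 0.46 to 0.75, INSIG1 0.31 to 0.48, ACACA 0.25 to 0.33), and ACACA also without replicate 1 (0.29, 0.0868).

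ANGPTL4, SKI, SMAD3, VASN and BMP6, which take part in TGFβ family signalling or are known targets of it, were lower. ANGPTL4 encodes a secreted inhibitor of lipoprotein lipase and is a known target of SMAD and PPAR factors. It measured 360.1, 373 and 499 untreated, 4129, 2839.7 and 3048 at 8 h and 483, 1913 and 1578 at 24 h. The replicate 1 array had come down almost to the untreated level and replicates 2 and 3 had not. The change was -1.54 ± 0.37 with all arrays (adjusted p = 0.0341), -0.92 without the replicate 1 array at 24 h, and -0.76 (0.00292) without replicate 1 of every group; 4 of 6 single-array omissions ended the call. SKI, a co-repressor that binds SMADs and dampens the signal, measured 725, 747 and 747 untreated, 1127, 1068 and 1153 at 8 h and 699, 879 and 746 at 24 h. It was high at 8 h and near the untreated arrays at 24 h (-0.53 ± 0.09, adjusted p = 0.00387). SMAD3, the signal transducer itself, had 2746, 2475 and 2753 at 24 h, against 3664, 3601 and 3295 at 8 h (-0.41 ± 0.10, adjusted p = 0.0462). VASN, a membrane protein that binds TGFβ, measured 255, 221 and 252 untreated, 427, 399 and 417 at 8 h and 152, 268 and 261 at 24 h (-0.91 ± 0.16, adjusted p = 0.00541). BMP6, a ligand of the bone morphogenetic protein branch, had 687, 693 and 684 at 24 h, against 906, 1002 and 1102 at 8 h (-0.54 ± 0.13, adjusted p = 0.0285).

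Over the 37 early target genes 2 were lower, ANGPTL4 and SKI, and 2 were higher, CDH2 and ZNF365 (0.28 ± 0.07, adjusted p = 0.0477), and the list median was -0.18 beside -0.01 over all genes, with 8 of 37 members above 0. The inhibitory SMAD7 (-0.33, adjusted p = 0.324), the matricellular gene CCN2 (-0.37, 0.392), JUNB (-0.35, 0.443), SKIL (-0.05, 0.930) and PMEPA1 (-0.04, 0.960) were not called. On the list of receptors and SMADs, SMAD3 was the 1 called gene of 23, and the type I receptor TGFBR1 missed the threshold at 0.58 (0.0560). GREM1, higher, and BMP6, lower, were the called genes among 30 ligands and antagonists. SMAD3 and ZNF365 lost their calls in all 6 single-array omissions (SMAD3 -0.45 to -0.35; ZNF365 0.22 to 0.32) and BMP6 in 5 (-0.61 to -0.47), whereas SKI and VASN stayed called in each; without replicate 1 ZNF365 was at 0.22 (0.223) and SMAD3 at -0.40 (0.0372).

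Further lower genes had their highest group mean at 8 h. FOSB, a subunit of the AP-1 transcription factor, measured 112, 104 and 103 untreated, 166, 204 and 175 at 8 h and 109.6, 129.5 and 121 at 24 h (-0.59 ± 0.09, adjusted p = 0.00181). The AP-1 subunit FOSL1 (-0.39 ± 0.09, adjusted p = 0.0225) and MYC (-0.37 ± 0.09, adjusted p = 0.0330) were the other lower genes among 29 immediate early genes, with 0 higher. Lower genes made up 10.3% of that list, beside 1.1% of all genes tested. JUN missed the threshold at -0.49 (0.0769), and EGR1 was not called, at -0.53 ± 0.26 (0.384). PREX1, an exchange factor that activates Rac, measured 205, 227 and 224 untreated, 426, 306 and 287 at 8 h and 158, 151 and 136 at 24 h. Its 24 h arrays were below the untreated arrays as well as below those at 8 h (-1.17 ± 0.17, adjusted p = 0.000985). TNS4, a focal adhesion protein of the tensin family, measured 910.0, 1430.4 and 1658 untreated, 2266, 2516 and 2484 at 8 h and 945, 1554 and 1321 at 24 h (-0.96 ± 0.22, adjusted p = 0.0282). CRYAB, a small heat shock protein, measured 165, 173 and 193 untreated, 334, 444 and 441 at 8 h and 257, 235 and 185 at 24 h (-0.85 ± 0.13, adjusted p = 0.00142). GKN2, a gastrokine secreted by stomach epithelium, had 117, 125 and 107 at 24 h, against 274, 273 and 163 at 8 h (-0.98 ± 0.22, adjusted p = 0.0264). SHISAL1 measured 99.0, 112 and 88.8 untreated, 219.8, 229.7 and 188 at 8 h and 101, 117 and 144 at 24 h (-0.82 ± 0.14, adjusted p = 0.00331). NDRG1, a stress-responsive gene, had very even arrays, 1312, 1330.4 and 1341 at 24 h, against 1853, 1852 and 1855 at 8 h (-0.48 ± 0.07, adjusted p = 0.000836), the 1 called gene of 28 on the hypoxia and glycolysis list. TNS4 and GKN2 each lost their calls in 5 single-array omissions (-1.11 to -0.76 and -1.23 to -0.86), FOSL1 and MYC in 4 (-0.47 to -0.29 and -0.44 to -0.27). Without replicate 1, GKN2 (-0.86, 0.0868), FOSL1 (-0.24, 0.201) and MYC (-0.23, 0.189) were not called.

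AGR2, SLC27A2, NALCN and TBXAS1 were lower at 8 h than without TGFβ and lower again at 24 h. AGR2, a disulfide isomerase that helps mucins fold, measured 3557, 2741 and 2832 untreated, 1417, 906 and 1119.8 at 8 h and 635, 361 and 322 at 24 h. No group overlapped the next, and replicate 1 was the highest array of each (-1.43 ± 0.26, adjusted p = 0.00600; -1.56 without replicate 1). SLC27A2, which transports and activates long-chain fatty acids, measured 2648, 2912 and 3102 untreated, 1802, 1810.0 and 1866 at 8 h and 1166, 569.6 and 668 at 24 h (-1.26 ± 0.19, adjusted p = 0.00119, and -1.57 without replicate 1). AGR2 and SLC27A2 were not called without all replicate 2 arrays (limma adjusted p = 0.215 and 0.112) or all replicate 3 arrays (0.159 and 0.156). NALCN, a sodium leak channel of neurons, measured 284, 359 and 353 untreated, 259.7, 259 and 245 at 8 h and 144, 106 and 119 at 24 h (-1.06 ± 0.11, adjusted p = 2.69e-05). TBXAS1, thromboxane synthase, measured 864, 789.7 and 1045 untreated, 478, 565 and 619 at 8 h and 279, 269.6 and 269 at 24 h (-1.02 ± 0.14, adjusted p = 0.000795). CD38, an ectoenzyme that consumes NAD (-0.83 ± 0.14, adjusted p = 0.00257), TM4SF4, a tetraspan membrane protein of liver and intestine (-0.82 ± 0.11, adjusted p = 0.000850), and CLMN, calmin (-0.87 ± 0.17, adjusted p = 0.00863), followed the same order of groups. All of these stayed called without each single array, as did ROPN1L, a gene of sperm and ciliated cells (-0.91 ± 0.13, adjusted p = 0.000934). CA8, an inactive relative of the carbonic anhydrases, had 676, 483 and 466 at 24 h, against 1329, 839 and 860.0 at 8 h (-0.89 ± 0.18, adjusted p = 0.0108), and lost its call in 3 omissions (-1.06 to -0.67). CPA4, a carboxypeptidase, was dim at 24 h (92.3, 59.3 and 56.3), against 228, 155 and 94.3 at 8 h (-1.15 ± 0.28, adjusted p = 0.0398), and its call was lost in 4 omissions (-1.48 to -0.84). The mucous and intestinal list held AGR2, the tetraspanin TSPAN1 (-0.56 ± 0.11, adjusted p = 0.0103) and the pioneer factor FOXA1 (-0.42 ± 0.10, adjusted p = 0.0318) as its 3 lower genes of 31, with 0 higher. That share lower was 9.68%, beside 1.1% of all genes tested. The FOXA1 call was lost in 5 single-array omissions (-0.46 to -0.35) and that of TSPAN1 in 1 (-0.60 to -0.53).

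Among genes under NRF2, the transcription factor of the oxidative stress response, 6 were lower, most of them detoxifying enzymes. A549 cells carry a mutation of KEAP1, the inhibitor of NRF2, and express these genes highly. GPX2, a glutathione peroxidase of the gut and airway, measured 5226, 6701 and 7242 untreated, 3208, 3716 and 3359 at 8 h and 2154, 1179.8 and 868 at 24 h. Replicate 1 was the highest 24 h array, and the change was -1.39 ± 0.25 (2.63-fold lower, adjusted p = 0.00528), or -1.80 without replicate 1. GPX2 was not called without all replicate 2 arrays (limma adjusted p = 0.292) or all replicate 3 arrays (0.168). Because GPX2 heads this group, its RefSeq promoter window (GRCh38.p14, minus strand, chr14:64942696-64942995, 250 bases before to 50 after the start) is printed 5′ to 3′, with capitals at the 1 match to the antioxidant response element core TGACNNNGC, which starts at base 129 and reads on the other strand.
GPX2: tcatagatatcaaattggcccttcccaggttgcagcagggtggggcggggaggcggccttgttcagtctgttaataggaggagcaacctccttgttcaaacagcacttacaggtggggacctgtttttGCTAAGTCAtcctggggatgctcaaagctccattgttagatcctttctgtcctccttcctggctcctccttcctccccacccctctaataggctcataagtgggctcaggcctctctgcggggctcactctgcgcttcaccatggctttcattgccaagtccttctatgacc

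ALDH3A1, an aldehyde dehydrogenase of airway and cornea, measured 3571, 3661 and 3493 untreated, 2565, 2612 and 2418 at 8 h and 1267, 1127 and 828 at 24 h. Its groups were wide apart and its error small (-1.26 ± 0.12, adjusted p = 2.61e-05). AKR1C2, an aldo-keto reductase that acts on steroids, had 5442, 4796 and 4266 at 24 h, against 7695, 7897 and 7457 at 8 h (-0.67 ± 0.10, adjusted p = 0.00155), with the limit that the AKR1C genes are near copies of each other. Its relative AKR1C1 did not pass the test, at 0.02 (adjusted p = 0.945). SRXN1, sulfiredoxin (-0.42 ± 0.09, adjusted p = 0.0159), GSR, glutathione reductase (-0.38 ± 0.10, adjusted p = 0.0391), and ABCC1, a transporter of glutathione conjugates (-0.32 ± 0.08, adjusted p = 0.0494), completed the 6 lower of 39 NRF2 targets. These were 15.4%, beside 1.1% of all genes tested, with 0 higher, a list median of -0.17 and 5 members above 0. NQO1 (-0.20, 0.459), GCLM (-0.37, 0.0616) and NFE2L2, which encodes NRF2 (-0.03, 0.929), were not called. Both strands of the promoter windows were searched: TGACNNNGC was present for 39 of the 197 higher genes with a window (19.8%), 24 of the 143 lower genes (16.8%) and 2608 of all 14210 (18.4%). The AP-1 site TGANTCA was present in 10.2% of the higher, 11.2% of the lower and 8.01% of all, and the SMAD-binding CAGACA in 17.3%, 20.3% and 19.0%. In the cytochrome P450 and conjugation list CYP2S1 (-0.75 ± 0.11, adjusted p = 0.00119), CYP4F11 (-0.67 ± 0.16, adjusted p = 0.0343), TBXAS1 and SULT1A1 (-0.35 ± 0.09, adjusted p = 0.0477) were lower and BAAT higher, 5 of 25 genes. Lower genes were 16.0% and higher genes 4.0%, beside 1.1% and 1.31% of all genes tested. GPX2, ALDH3A1, AKR1C2 and CYP2S1 stayed called without each array. SRXN1 (-0.30, 0.104), GSR (-0.32, 0.138), CYP4F11 (-0.56, 0.0657) and SULT1A1 (-0.32, 0.0808) were not called without replicate 1, when the NRF2 list had 7 lower genes, beside 1 without replicate 2 or 3 and 3 to 4 in the single-array omissions; single-array omissions gave SRXN1 -0.50 to -0.35 (lost in 3), GSR -0.42 to -0.34 (6), CYP4F11 -0.88 to -0.54 (5) and SULT1A1 -0.43 to -0.28 (5).

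Complement and liver-type plasma protein genes, made by liver and also by lung epithelium, were the list with the most lower genes by count, 7 of 40. The share lower was 17.5%, against 1.1% of all genes tested, with 1 higher and a list median of -0.15. The 7 include TM4SF4, which is a membrane protein and not a plasma protein. By share the list of 9 A549 epithelial markers stood above it, at 22.2% lower. C5, the source of the anaphylatoxin C5a, measured 4897, 3570.0 and 3602 untreated, 2251, 1869.5 and 2075 at 8 h and 1426, 1012 and 1122 at 24 h. Its groups were separate at each step (-0.81 ± 0.18, adjusted p = 0.0208). C3, the central complement component, had 244, 246 and 190.2 at 24 h, against 411, 392 and 658 at 8 h (-1.07 ± 0.21, adjusted p = 0.0103), and replicate 3 was the highest array at 8 h. APOH, beta-2-glycoprotein I, had 135, 156 and 173 at 24 h, against 356, 277 and 269.9 at 8 h (-0.96 ± 0.19, adjusted p = 0.0103). The proteases C1S (-0.76 ± 0.11, adjusted p = 0.00107) and C1R (-0.63 ± 0.13, adjusted p = 0.0110) of the first complement complex, TM4SF4 and SERPINA3 were the other lower genes. CD59, a membrane inhibitor of the complement attack complex, was the higher one (0.38 ± 0.10, adjusted p = 0.0491). Ceruloplasmin, CP, had a large value that was not called, -1.34 ± 0.38 (0.0723). RBP4, the carrier of retinol in blood, had 114, 99.3 and 106 at 24 h, against 208, 207 and 149 at 8 h (-0.81 ± 0.19, adjusted p = 0.0295). Of 20 chemokines CCL2 (-0.69 ± 0.18, adjusted p = 0.0491) and CXCL16 (-0.43 ± 0.11, adjusted p = 0.0409) were lower and 0 higher. Lower chemokines were 10.0%, beside 1.1% of all genes tested. CCL2, which attracts monocytes, had 3510.1, 4240.2 and 4287 at 24 h, against 5953, 6845 and 6525 at 8 h. The calls of CCL2 and CXCL16 were lost in all 6 single-array omissions (-0.74 to -0.59 and -0.49 to -0.31), those of RBP4 and SERPINA3 in 5 (-0.97 to -0.73 and -0.88 to -0.57), C5 in 4 (-0.95 to -0.70), C3 in 2 (-1.21 to -0.83) and APOH in 1 (-1.04 to -0.83). The 7 lower genes of the complement list became 3 to 6 in the single-array omissions, 3 without replicate 3 at either time and 4 without 24 h replicate 2 or 8 h replicate 1. Without all replicate 1 arrays 11 were lower, and without all of replicate 2 or of replicate 3 limma called 0 (8 and 9 lower at an unadjusted p under 0.05).

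**Figure D4:**
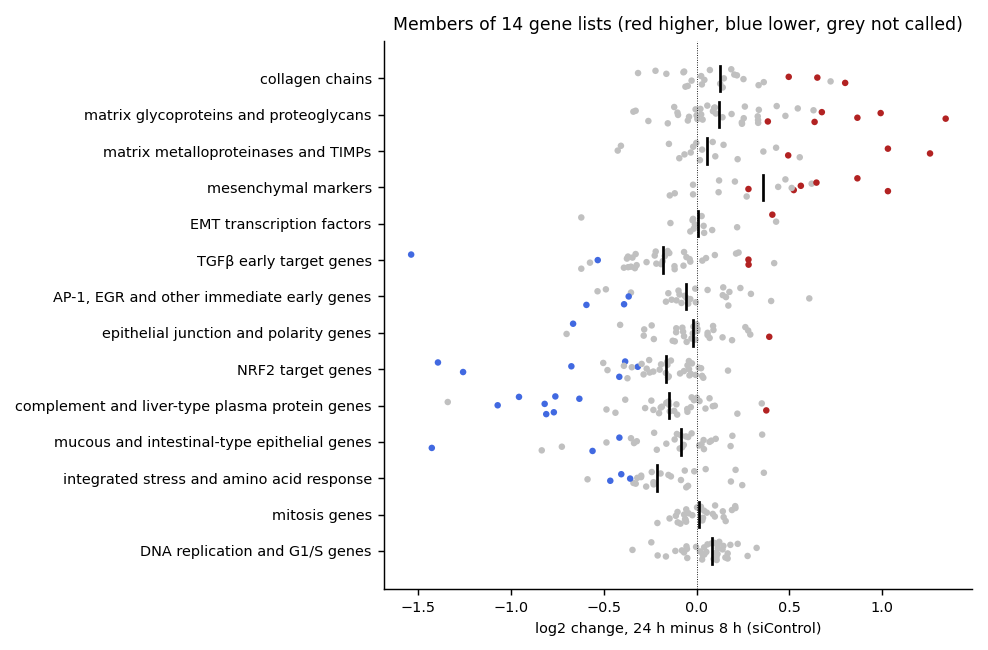
Log2 change between 24 h and 8 h for every measured member of 14 gene lists. Each point is 1 gene, red where higher and blue where lower at 24 h; black ticks are list medians, which lie above 0 for mesenchymal markers (0.36) and below 0 for TGFβ early targets (-0.18), NRF2 targets (-0.17) and complement genes (-0.15).

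Some growth and stress lists held called genes and others held none. Amino acid transporters SLC7A5 (-0.41 ± 0.08, adjusted p = 0.0127), SLC1A5 (-0.36 ± 0.08, adjusted p = 0.0318) and SLC1A4 (-0.47 ± 0.12, adjusted p = 0.0471) were the 3 lower of 26 genes of the integrated stress and amino acid response. A second, dimmer probe set of SLC1A5 changed by -0.26 and was not called (limma adjusted p = 0.374). The 3 are 11.5% of that list, beside 1.1% lower of all genes tested, and 10 of the 26 had an unadjusted p under 0.05. SLC7A5, which carries leucine into cells, had 5412, 5718 and 4939 at 24 h, against 7105, 7378 and 6781 at 8 h, and its groups did not overlap. The nucleolar proteins PES1 (-0.33 ± 0.08, adjusted p = 0.0438) and DDX21 (-0.33 ± 0.09, adjusted p = 0.0462) were the 2 lower of 27 ribosome biogenesis genes (7.41%), of which 1 was above 0 (median -0.18). Of these 27 genes 11 had an unadjusted p under 0.05. Limma called 0 of 29 mitosis genes (1 at an unadjusted p under 0.05), 0 of 37 replication genes (3), 0 of 21 genes of the unfolded protein response (1), 0 of 29 secretory pathway genes (5) and 0 of 35 cytokines and receptors (7). Over all genes tested, 2501 of 18377 had an unadjusted p under 0.05. Of 22 p53 targets, TP53INP1, a regulator of stress-induced cell death, was higher (0.50 ± 0.11, adjusted p = 0.0205). On the YAP and TEAD list RBMS3 and NT5E were higher, ANKRD1, a nuclear ankyrin-repeat protein (-0.95 ± 0.21, adjusted p = 0.0208), and DOCK5, a Rac exchange factor (-0.44 ± 0.10, adjusted p = 0.0193), lower. ANKRD1 measured 821, 634 and 619 untreated, 496, 572 and 534 at 8 h and 273, 283 and 272 at 24 h. SULF2, a sulfatase that trims heparan sulfate, had 1225, 2299.8 and 2261 at 24 h, against 1006, 925 and 1161 at 8 h (0.85 ± 0.20, adjusted p = 0.0326), and EXTL2, a glycosyltransferase of the same chains, changed by 0.44 ± 0.10, adjusted p = 0.0267. Without replicate 1, PES1 (-0.21, 0.287), DDX21 (-0.21, 0.261), SLC1A4 (-0.42, 0.0504), SLC1A5 (-0.31, 0.0915) and EXTL2 (0.32, 0.0861) were not called. Single-array omissions ended every call of this paragraph at least once other than those of RBMS3, with adjusted p up to 0.179 for PES1, 0.187 for DDX21, 0.140 for SULF2, 0.0913 for ANKRD1, 0.0642 for SLC7A5, 0.0991 for TP53INP1, 0.0850 for DOCK5 and 0.0515 for NT5E.

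The siPKCiz arm gave the same time comparison in arrays that share no sample with siControl. Both comparisons came from the same fit, with a spread per gene shared by all groups. A gene with a small spread is thus favoured for a call in both arms. There 71 genes were higher at 24 h (0.386%) and 77 lower (0.419%), 148 in all (0.805%). Of the 241 genes higher in siControl, 240 were also above 0 in siPKCiz (99.6%, beside 47.4% of all genes), and of the 202 lower ones 195 were below 0 (96.5%, beside 52.6%). In both arms 51 genes were called higher, which is 71.8% of the siPKCiz and 21.2% of the siControl higher genes, and 47 were called lower, 61.0% and 23.3%. The median siPKCiz change of the siControl genes was 0.32 for the higher and -0.33 for the lower, against 0.49 and -0.47 in siControl, where the genes had been selected by their own size. HHLA2 had 883, 907 and 938 at 24 h and 263, 211 and 253 at 8 h in siPKCiz (1.91 ± 0.12, adjusted p = 9.32e-08), a difference between arms, siPKCiz minus siControl, of -0.05 ± 0.17 (95% interval -0.41 to 0.31). SLN (1.74 in siPKCiz, 0.00461), GPX2 (-1.21, 0.0268), ALDH3A1 (-1.05, 0.000470), LUM (1.08, 0.000865) and TM4SF4 (-1.02, 0.000324) were called in both arms in the same direction. STK32B (-1.11, 0.0139) and BCAS1 (-1.09, 0.0268) were called lower in siPKCiz and missed the threshold in siControl (-0.74, 0.0698 and -0.83, 0.0599), as did R3HDML among the higher (1.46, 0.0446 in siPKCiz; 1.23, 0.0577 in siControl).

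The difference in the time change between the arms passed limma's test for 0 of 18377 genes (lowest adjusted p 0.998), and its median standard error was 0.14. At an unadjusted p under 0.05 there were 822, fewer than that threshold passes on average where no gene differs. Intervals that left out 0 before adjustment included CRYAB, at 0.75 ± 0.18 (0.37 to 1.13), with 315, 306 and 282 at 24 h and 302, 313 and 355 at 8 h in siPKCiz. Its siPKCiz arrays overlapped between the times, unlike those of siControl. NCKAP5 differed by -0.76 ± 0.24 (-1.27 to -0.24), TACR1 by -0.71 ± 0.28 (-1.30 to -0.12), SLC27A2 by 0.69 ± 0.26 (0.14 to 1.25) and PDGFC by -0.44 ± 0.16 (-0.79 to -0.10), none of them called. CRYAB and these genes had been named for a large siControl change, a choice that favours a smaller change in siPKCiz. Replicate 1 of siPKCiz stood apart here. IGFBP5 in siPKCiz had 830.5, 164 and 231 at 24 h and 153, 156 and 185 at 8 h, and LCE3E had 1274, 511 and 475 at 24 h and 268, 201 and 208 at 8 h, with replicate 1 the highest 24 h array of both. PRKCZ, a target of the siRNA, measured 206, 189 and 152 at 24 h and 254, 153 and 153 at 8 h in siPKCiz, against 302, 472 and 409 and 309, 410.2 and 410.2 in siControl, so its replicate 1 values lay nearer to those of siControl than replicates 2 and 3 did. PRKCI, the other target, was low in every siPKCiz array, at 457, 571 and 558 at 24 h and 583, 621 and 554 at 8 h, against 2633, 2571 and 2815 and 2804, 2818 and 2545 in siControl; the part of PRKCZ in the difference was not tested. Without replicate 1 the difference was called for 5 genes, each with a smaller rise in siPKCiz: IGFBP5 (-1.49 ± 0.23, adjusted p = 0.0421), SLC6A13 (-1.12 ± 0.16, 0.0242), LCE3E (-0.84 ± 0.13, 0.0342), TNFAIP6, a hyaluronan-binding protein (-0.89 ± 0.13, 0.0242), and HS3ST3B1, a heparan sulfate sulfotransferase (-0.90 ± 0.12, 0.0242). These genes were looked up after the data were seen. Without replicate 2, as without replicate 3, the difference was called for 0 genes. With all arrays it was -0.97 ± 0.57 for IGFBP5, -0.69 ± 0.22 for SLC6A13 and -0.23 ± 0.44 for LCE3E.

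**Figure D5:**
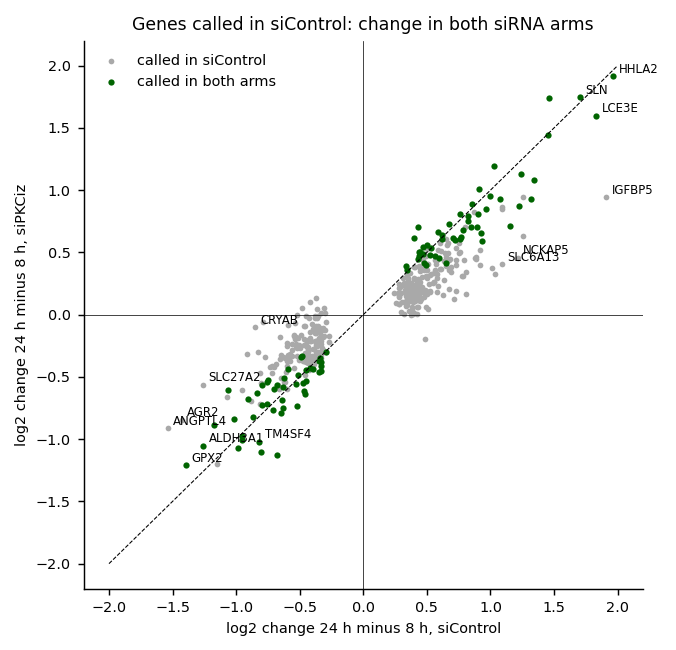
Log2 change between 24 h and 8 h in siPKCiz (vertical axis) against that in siControl (horizontal axis) for the 443 genes called in siControl. Green points were called in both arms (51 higher, 47 lower), grey points in siControl, and the dashed line marks equal change; IGFBP5 lies below it and CRYAB near 0 on the vertical axis.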

How the data were processed

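Expression was measured on 18 whole-transcript arrays of A549 cells. RMA and Partek are the tools listed in the submitters' processing notes, and for their versions the sources used here give none. The deposited unit was intensity on a linear scale, from 21.2 to 51230. The plan had assumed log2 values, so log2 was taken once and no other normalization was applied. Of 28869 probe sets, 19310 had 1 symbol in the platform annotation, 1752 several and 7807 none listed. Only those with 1 symbol were used, the brightest per gene, which left out 933 and gave 18377 genes.

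Log2 values went into limma 3.58.1 (R 4.3.3) as 6 group means over all 18 arrays with empirical Bayes moderation (12 residual and 18.1 total degrees of freedom). Groups came from the sample titles. Contrasts were 24 h minus 8 h in siControl, the same in siPKCiz, their difference, and each siControl time minus untreated. The tests were two-sided, p-values were adjusted by Benjamini-Hochberg across the 18377 genes, and calls needed a value under 0.05. The fit was checked on simulated data with known changes and independent noise, alike in every array. That check could not show effects shared by the arrays of a replicate number, such as replicate 1. Arrays have no read depth, and 3 arrays per group limit the precision (median standard error 0.0996).

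Named genes were the 25 highest and 25 lowest called genes with arrays that did not overlap, up to 5 called members of each of 46 gene lists with the largest change, the 5 highest and 5 lowest of siPKCiz, and the B7, LCE3, IGFBP and marker genes as levels. Other list members, including C1S, C1R, CD59, ABCC1, HSPG2, MMP3, MMP7, MMP9, MMP10 and MMP24, were named after their values were seen. The members, lists and rules were chosen with earlier results of these data known. Alternatives were the replicate number as a block, a filter on dim genes, quantile normalization, median centring, trend, robust, array weights, a 1.5-fold minimum, only the arrays compared, all probe sets, and leaving out each array or replicate number. Promoters are from RefSeq (GRCh38.p14), with windows for 14210 genes.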

Additional observations from a re-analysis of the deposited data

Results flagged for a closer look

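The comparisons used probe sets with 1 gene symbol. Outside them, 9559 probe sets had several symbols or none listed, and 59 of these passed the same test between 24 h and 8 h in siControl, 38 higher and 21 lower. That is 0.617% of them, beside 1.28% of all probe sets. They carry no single gene name here, so no gene was assigned to them.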

How the results depend on the processing

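With the number of arrays, 3 per group, as the limit of precision, the counts of called genes moved with the settings. None of the 1974 values of called named genes under an alternative changed sign, and 581 lost their call. The signs could hardly have changed, since these genes were called in the same arrays. Of all 443 called genes, 441 had 24 h and 8 h arrays that did not overlap. In siControl (241 higher and 202 lower) a fold of at least 1.5 left 86 and 68, and a fit of only the 6 arrays compared left 122 and 89. In siPKCiz (71 and 77) the same settings left 40 and 32, and 16 and 11, and array weights gave 161 and 227. Leaving out single arrays or a replicate number gave 6 to 431 higher and 4 to 239 lower genes in siControl, and 1 to 136 higher and 0 to 163 lower in siPKCiz; the highest counts came without replicate 1, and the 6, 4, 1 and 0 without replicates 2 or 3. In limma without replicate 2, 704 genes were lower in siPKCiz at an unadjusted p under 0.05. The difference between the arms ranged from 0 to 5 genes, the 5 without replicate 1. Median centring, quantile normalization, robust or trended moderation, the dim filter and all probe sets kept the siControl counts within 1.5 times. Of 104 called named genes, 44 stayed called without each of the 6 arrays, 9 lost their call under median centring and 2 under quantile normalization.

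In siControl the replicate numbers showed no clear pairing, which 3 arrays per group cannot settle. Deviations of same-numbered 24 h and 8 h arrays correlated at 0.143, -0.201 and 0.175, and not every array correlated best with its own number. In siPKCiz the same correlations were 0.169, 0.0669 and 0.258, and every array correlated best with its own number, a hint from the data and not from the design. With the replicate number as a block, 143 genes were higher and 120 lower in siControl, and 34 and 43 in siPKCiz; 27 of the 104 named genes were not called.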

Other observations

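Clock genes, looked up after their values were seen, were not on any list. CRY1, a repressor of the circadian loop, was lower at 24 h than at 8 h in siControl (-0.75 ± 0.12, limma adjusted p = 0.00169) and in siPKCiz (-0.53 ± 0.12, 0.0369). NR1D2, REV-ERBβ, was higher in siControl (0.62 ± 0.14, 0.0224) and in siPKCiz (0.61 ± 0.14, 0.0452). The other 16 clock genes examined were not called in siControl, PER1 among them at 0.48 (adjusted p = 0.0641).

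The genes higher at 24 h in siControl were long. Their median span in RefSeq was 78.8 kb, and 42.5% exceeded 100 kb. Genes lower at 24 h had a median of 31.8 kb, with 21.8% over 100 kb, beside 24.5 kb and 16.9% for all genes tested. In siPKCiz the medians were 68.3 kb for the higher and 30.2 kb for the lower genes.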
